A study of Mus musculus with 6 samples.

Results

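The 8 genes described here are the members studied of the Ugt2 family of UDP-glucuronosyltransferases, Ugt2a3, Ugt2b1, Ugt2b5, Ugt2b34, Ugt2b35, Ugt2b36, Ugt2b37 and Ugt2b38, and they were found by symbol among the 56674 rows of a liver read count table. The table holds 6 libraries of poly(A) RNA from the livers of male C57BL/6 mice reared for 71 weeks, 3 from mice on chow containing polyethylene microplastic (PE-MP) and 3 from mice on normal chow. The comparison asks how liver transcripts differ after 71 weeks on the plastic-containing chow. The labels state no dose, particle size or batch, nor whether libraries came from separate mice, and all p-values below therefore reflect spread among libraries that may be technical.

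UDP-glucuronosyltransferases sit in the membrane of the endoplasmic reticulum and move glucuronic acid from UDP-glucuronic acid onto small lipophilic molecules, which can then leave the cell for bile or urine. Enzymes of the Ugt2 family take steroid hormones, bile acids and many drugs as substrates, and the liver is their main site in rodents. The genes arose by duplication and lie side by side in 1 cluster on chromosome 5.

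The close kinship of the members bears on every value below, because reads from near-identical stretches can be split or assigned to the wrong copy. In the GENCODE M21 transcripts, the longest open reading frames of Ugt2b5 and Ugt2b38 were 97.0% identical, those of Ugt2b5 and Ugt2b37 94.7%, and those of Ugt2b37 and Ugt2b38 94.1%. Over all 28 pairs the identity lay between 69.2% and 97.0%, and Ugt2a3 and Ugt2b5 made the most distant pair. Of the stretches of 50 bases in the Ugt2b5 transcript, 41.7% also stood in a transcript of another gene, mostly Ugt2b38. The share was 37.4% for Ugt2b38 and 18.3% for Ugt2b37, and at most 4.55% for each of the other 5 members. With stretches of 100 bases it was 24.7% for Ugt2b5, 24.2% for Ugt2b38 and 1.06% for Ugt2b37. Levels of Ugt2b5, Ugt2b38 and Ugt2b37 are therefore uncertain to the extent that the counting divided such reads, while Ugt2b1 shared no stretch of 50 bases with another gene.

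The promoters are also related, though not in the same order of closeness. Over the 100 bases before the start, with gaps left out, Ugt2b37 and Ugt2b38 were 97.7% identical. Ugt2b5 and Ugt2b37 were 95.2% identical there, and Ugt2b5 and Ugt2b38, the closest in coding sequence, 87.5%. Of the promoters, 5 are printed for what they share or lack. All come from RefSeq on build GRCm38.p6, which differs from the build GRCm39 named for the counts, and cover the 110 bases before the annotated start. Ugt2b5, Ugt2b38 and Ugt2b37 are shown as the closest copies, Ugt2b35 as the member on the opposite strand whose level varied most, and Ugt2a3 as the member without the longer match. Capitals mark a gapped match, GTTA and TTAAC with 4 free letters between them, or the shorter element GTTAAT.
Ugt2b5, chr5:87140341-87140450, minus strand: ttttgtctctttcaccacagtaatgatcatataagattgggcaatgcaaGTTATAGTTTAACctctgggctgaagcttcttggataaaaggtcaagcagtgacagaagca
Ugt2b38, chr5:87424204-87424313, minus strand: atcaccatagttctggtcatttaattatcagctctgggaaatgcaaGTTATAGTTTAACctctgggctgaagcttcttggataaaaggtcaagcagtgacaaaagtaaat
Ugt2b37, chr5:87254789-87254898, minus strand: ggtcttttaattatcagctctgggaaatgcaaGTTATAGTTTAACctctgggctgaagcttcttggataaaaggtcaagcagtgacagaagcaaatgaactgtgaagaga
Ugt2b35, chr5:87000750-87000859, plus strand: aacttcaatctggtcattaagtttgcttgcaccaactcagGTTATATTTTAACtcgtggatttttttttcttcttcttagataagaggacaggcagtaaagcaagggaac
Ugt2a3, chr5:87337196-87337305, minus strand: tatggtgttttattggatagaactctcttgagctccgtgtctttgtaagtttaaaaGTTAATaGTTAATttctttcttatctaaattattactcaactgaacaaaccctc

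The gapped match, searched on both strands over 250 bases before to 50 after the start, stood in 7 of the 8 member promoters and in 62 of all 32851 promoters (0.189%). It was chosen after these promoters had been read, and the 7 copies are related by descent, so the count is a description. Its first base lay 61 to 89 bases before the start, at -89 in Ugt2b1 and -61 in Ugt2b5. Ugt2a3 had none but held GTTAAT at -54 and -47, an element that 7.1% of all promoters hold. No member promoter held TGACCTTTG or CAAAGTCCA, written for HNF4, the octamer ATGCAAAT or GAGGTCA, written for nuclear receptors. These stood in 0.478%, 0.475%, 1.74% and 5.28% of all promoters. The shorter AGGTCA was not searched for, and it stands in the printed windows of Ugt2b5, Ugt2b38 and Ugt2b37, so a nuclear receptor half-site is not shown to be absent.

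**Figure D1:**
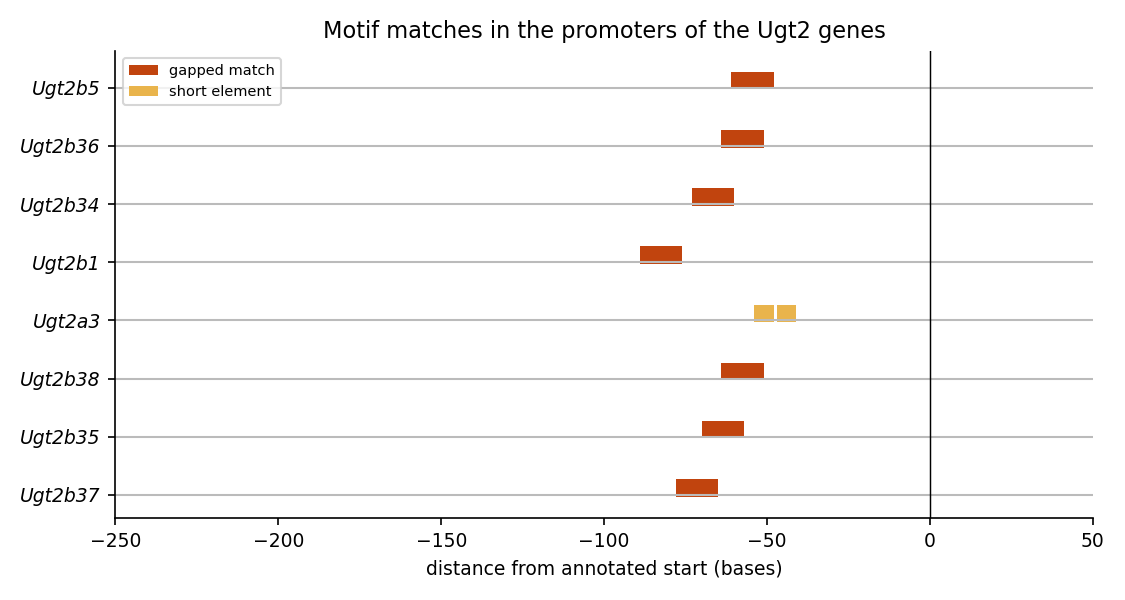
Position of motif matches in the promoters of the 8 Ugt2 genes, as distance in bases from the annotated start. The gapped match begins between 89 and 61 bases before the start in 7 genes, and Ugt2a3 holds GTTAAT at -54 and -47 in its place.

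Total counts lay between 75176645 and 91898953 in the PE-MP libraries and between 68357478 and 112566641 in the normal chow libraries. The 13 mitochondrially encoded mRNAs took 8.63% to 9.19% of counts under PE-MP chow and 14.2% to 15.1% under normal chow. The 18S rRNA gene Rn18s-rs5 varied widely within both chows. It took 5.98%, 3.10% and 0.334% of counts in PE-MP libraries 1, 2 and 3 and 2.92%, 11.2% and 1.15% in normal chow libraries 1, 2 and 3. Levels are CPM, counts relative to the library total, scaled by TMM factors, which were 1.07 to 1.17 for PE-MP chow and 0.880 to 0.923 for normal chow. The 13 hepatocyte mRNAs measured, Alb and Ttr among them, summed to 75816 to 81641 CPM under PE-MP chow and 70333 to 87248 CPM under normal chow, as fits the liver label. Of 7 kidney tubule markers, 4 were at 0 in every library, and the list summed to at most 1.20 CPM. Of 7 enterocyte markers, 3 were at 0 in every library, and Fabp2, which liver also expresses, made up nearly all of the sum. The 8 Kupffer cell markers summed to 140 to 233 CPM under PE-MP chow and 99.6 to 136 under normal chow, and the 8 lymphocyte markers to 6.46 to 10.7 under PE-MP chow and 20.05 to 55.0 under normal chow. The 8 endothelial cell markers summed to 126 to 166 CPM under PE-MP chow and 103 to 114 under normal chow, and the 8 stellate cell markers to 156 to 306 under PE-MP chow and 300.2 to 313 under normal chow. The 6 cholangiocyte markers summed to 19.5 to 24.5 CPM under PE-MP chow and 12.4 to 27.1 under normal chow. Their part in the values of the Ugt2 genes was not tested, and in bulk liver a lower share of hepatocytes and less RNA per hepatocyte cannot be told apart.

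The 8 transcripts together gave 2258, 2279 and 2515 CPM in PE-MP libraries 1, 2 and 3, against 2203, 3201 and 2804 CPM in normal chow libraries 1, 2 and 3. Normal chow library 1 lay below every PE-MP library and the other normal chow libraries above, so the groups overlapped. The means were 2351 ± 143 CPM under PE-MP chow and 2736 ± 503 CPM under normal chow (SD, n = 3 each), a ratio of 0.859, and the ratio was 1.06 when levels were taken from library totals without TMM factors. Normal chow library 2 held the highest level of 7 of the 8 members, and without it the ratio was 0.936.

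Per kilobase of annotated exon, Ugt2b5 was the most abundant member in every library, at 384 ± 26.9 CPM per kilobase under PE-MP chow and 487 ± 75.3 under normal chow (SD, n = 3 each). Ugt2b36 came next, at 263 ± 18.8 CPM per kilobase under PE-MP chow and 299.5 ± 53.6 under normal chow. Both stood apart from their neighbours in the order, in each chow. Lower down, Ugt2b1 had 129.9 ± 5.22 CPM per kilobase under PE-MP chow and 165 ± 32.7 under normal chow. Ugt2a3 had 119 ± 10.3 under PE-MP chow and 111 ± 26.8 under normal chow, and Ugt2b34 had 89.9 ± 14.6 under PE-MP chow and 97.2 ± 23.6 under normal chow. Within this trio the ranges of Ugt2b1 and Ugt2a3 overlapped under PE-MP chow, and those of Ugt2a3 and Ugt2b34 overlapped under normal chow. The place of Ugt2b34 depends on the length used: per kilobase of coding sequence it ranked 3 under PE-MP chow and 4 under normal chow. Ugt2b38 had 37.2 ± 1.99 CPM per kilobase under PE-MP chow and 47.2 ± 8.11 under normal chow, 10.3 times below Ugt2b5 in both chows. Ugt2b35 followed with 14.9 ± 4.85 CPM per kilobase under PE-MP chow and 12.5 ± 11.4 under normal chow. Ugt2b37 closed the order at 1.28 ± 0.255 CPM per kilobase under PE-MP chow and 1.88 ± 0.0858 under normal chow. It was 299-fold below Ugt2b5 under PE-MP chow and 259-fold below it under normal chow. The order of the first 6 members was the same in all 6 libraries, and that of the last pair turned round in normal chow library 3.

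**Figure D2:**
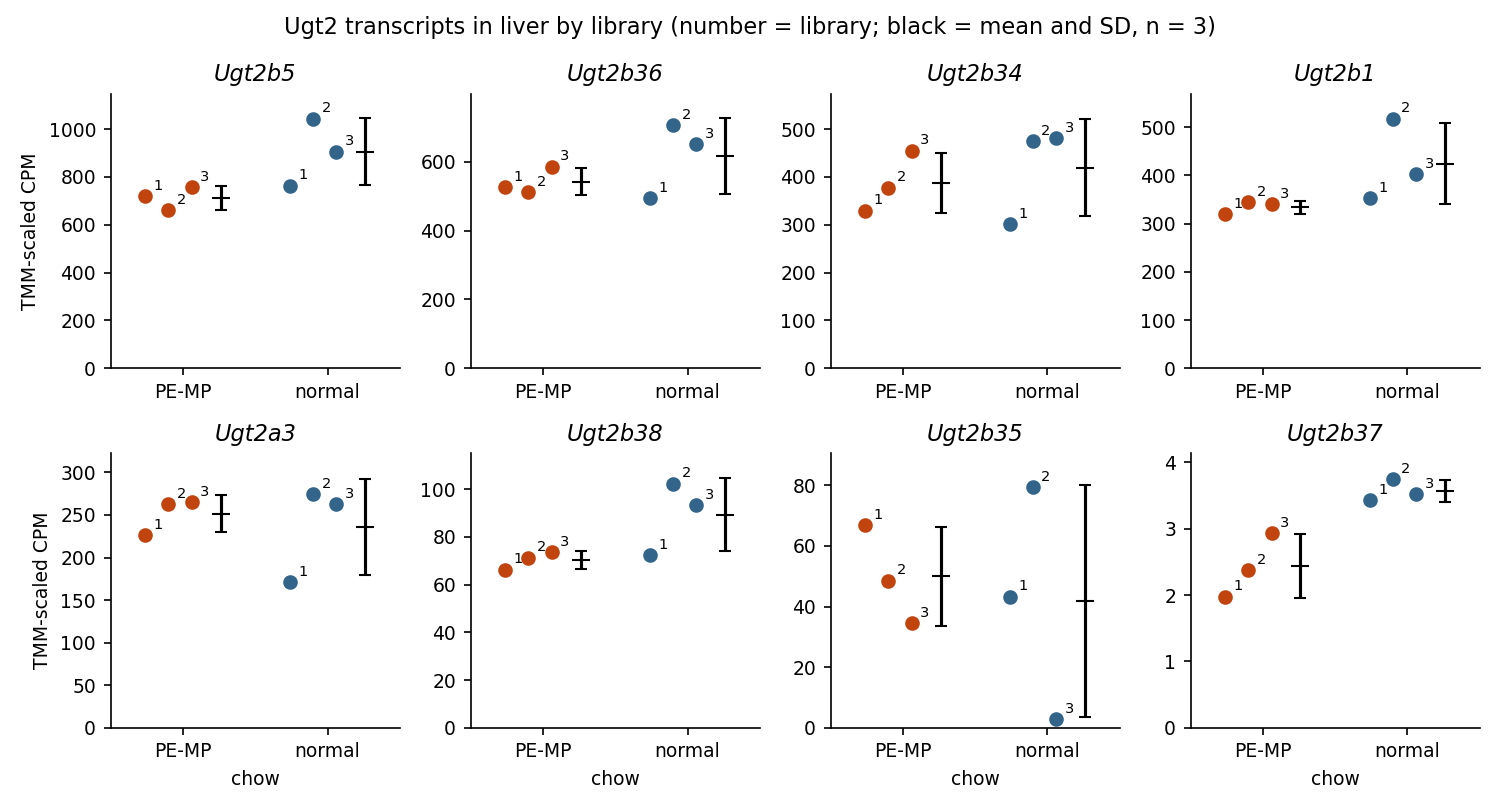
TMM-scaled CPM of the 8 Ugt2 genes in each library, with PE-MP chow left of normal chow, the library number beside each point, and the mean and SD (n = 3) in black. Normal chow library 2 is the highest point for 7 genes, and Ugt2b35 drops to 2.87 CPM in normal chow library 3.

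None of the 8 members passed the edgeR quasi-likelihood test at an adjusted p of 0.05 between the chows, in a fit over 18043 genes in which 0.00554% of genes passed upwards and 0% downwards. DESeq2 and limma-voom also called 0 members, against 6.59% and 0.0831% of all genes, and at an unadjusted p under 0.05 in edgeR there was 1 member, Ugt2b37, against 17.9% of all genes. The log2 fold changes of PE-MP chow over normal chow lay between -0.55 and 0.26, with 6 of 8 below 0 on the TMM scale, as were 48.3% of all tested genes, and 4 of 8 below 0 on library totals without factors. Their median was -0.26, beside 0.018 for all tested genes. On library totals the median of all genes moved to 0.32 and that of the members to 0.044. The members stood 0.28 below all genes on both scales (-0.28 in each). A change of factors moves all genes by nearly the same amount, so this likeness cannot show that the gap is stable. When single libraries were dropped, the gap ran from -0.41 (library 1 of the normal chow dropped) to -0.17 (its library 2 dropped). The 95% intervals of 6 of the 8 members stayed between -1 and 1 on the log2 scale, as did those of 49.7% of all tested genes, and the exceptions were Ugt2b35 and Ugt2b37.

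Among the abundant members, Ugt2b5, whose product acts on steroids, had 721, 660 and 759 CPM in PE-MP libraries 1, 2 and 3, against 764, 1044 and 906 CPM in the normal chow libraries. Every PE-MP library lay below every normal chow library, though by a small step between 759 and 764 CPM. Its log2 fold change was -0.34 ± 0.15 (SE; 95% interval -0.70 to 0.013; edgeR adjusted p = 0.293), and on library totals it was -0.035. Ugt2b1 stood at 319, 344 and 340 CPM in the PE-MP libraries and at 353, 517 and 402 CPM in the normal chow libraries. The chows again did not overlap, and the log2 fold change was -0.34 ± 0.16 (SE; 95% interval -0.73 to 0.040; edgeR adjusted p = 0.319), or -0.037 on library totals. Ugt2b37, the scarcest member, had 187, 195 and 316 counts in the PE-MP libraries, which is 1.98, 2.38 and 2.94 CPM, and 240, 225 and 357 counts or 3.43, 3.74 and 3.52 CPM in the normal chow libraries. Its log2 fold change was -0.55 ± 0.21 (SE; 95% interval -1.05 to -0.057; unadjusted p = 0.0337, edgeR adjusted p = 0.240), and on library totals it was -0.24. These were the 3 members whose chows did not overlap, all lower under PE-MP chow, while 11.8% of all tested genes were lower without overlap and 26% parted in either direction. In CPM of total counts the chows overlapped for all 3, with 2.65% of all tested genes lower without overlap, while 1 member, Ugt2a3, was higher without overlap, as were 34.6% of all tested genes on that scale.

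Ugt2b38, the closest copy of Ugt2b5, had 66.3, 71.3 and 73.7 CPM in the PE-MP libraries and 72.4, 102 and 93.2 CPM in the normal chow libraries. The groups overlapped by 1 library, and the log2 fold change was -0.34 ± 0.15 (SE; edgeR adjusted p = 0.297), or -0.034 on library totals. On the TMM scale it was the same as that of Ugt2b5 to 2 decimals. So was that of Ugt2b1, which shared no stretch of 50 bases with another gene. Of the stretches of 50 bases of Ugt2b38, 34.1% also stood in Ugt2b5. The part of shared reads in the likeness of Ugt2b38 to Ugt2b5 was not tested. Ugt2b36 measured 527, 512 and 585 CPM in the PE-MP libraries and 493, 706 and 651 CPM in the normal chow libraries, which overlapped. Its log2 fold change was -0.19 ± 0.16 (SE; 95% interval -0.57 to 0.20; edgeR adjusted p = 0.572) and turned to 0.12 on library totals. Ugt2b34 had 329.7, 378 and 455 CPM in the PE-MP libraries and 302, 474 and 481 CPM in the normal chow libraries, with PE-MP values between the normal chow extremes. Its log2 fold change was -0.11 ± 0.22 (SE; 95% interval -0.63 to 0.41; edgeR adjusted p = 0.812), and it was 0.20 on library totals.

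Ugt2a3, the only Ugt2a gene with counts here and one whose human counterpart conjugates bile acids, had 226, 263 and 265 CPM in the PE-MP libraries and 171, 274 and 263 CPM in the normal chow libraries. Normal chow library 1 was the low one and the rest lay within a narrow band. The log2 fold change was 0.090 ± 0.20 (SE; 95% interval -0.38 to 0.56; edgeR adjusted p = 0.838), it was -0.10 without normal chow library 1, and 0.40 on library totals. Ugt2a1 and Ugt2a2, known from the olfactory epithelium, had 0 counts in all 6 libraries.

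Ugt2b35 was the uneven member, with 6336, 3979 and 3709 counts in PE-MP libraries 1, 2 and 3 and 3035, 4769 and 291 counts in normal chow libraries 1, 2 and 3. In CPM this was 67.0, 48.5 and 34.5 under PE-MP chow and 43.3, 79.3 and 2.87 under normal chow. Normal chow library 3, the most deeply sequenced of the 6, lay 16.9-fold below the median of the other libraries and below each of them. Of 5682 tested genes with at least 10 CPM in each of the other 5 libraries, Ugt2b35 was the 1 gene more than 8-fold below all of them in that library, a search made after its values were seen. Each of the other libraries had 1 to 6 such genes. The processed pseudogene Gm5869, which GENCODE M21 places just before Ugt2b35 on the same strand, was not low there, at 12.7, 16.2 and 18.1 CPM in the PE-MP libraries and 17.1, 13.3 and 15.7 CPM in the normal chow libraries. Whether its counts come from that place or from a related gene elsewhere was not tested. Only 0.303% of the stretches of 50 bases of Ugt2b35 stood in a transcript of another gene. The log2 fold change of Ugt2b35 was 0.26 ± 0.98 (SE; 95% interval -2.14 to 2.66; edgeR adjusted p = 0.911) and without normal chow library 3 it was -0.30 (95% interval -1.21 to 0.62; edgeR adjusted p = 0.776). It was 1.11 without normal chow library 2, 1.06 with the replicate block and 1.26 with limma-voom, -0.017 without PE-MP library 1 and 0.56 on library totals. Over all alternatives its adjusted p from edgeR, DESeq2 or limma-voom lay between 0.543 and 0.997.

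**Figure D3:**
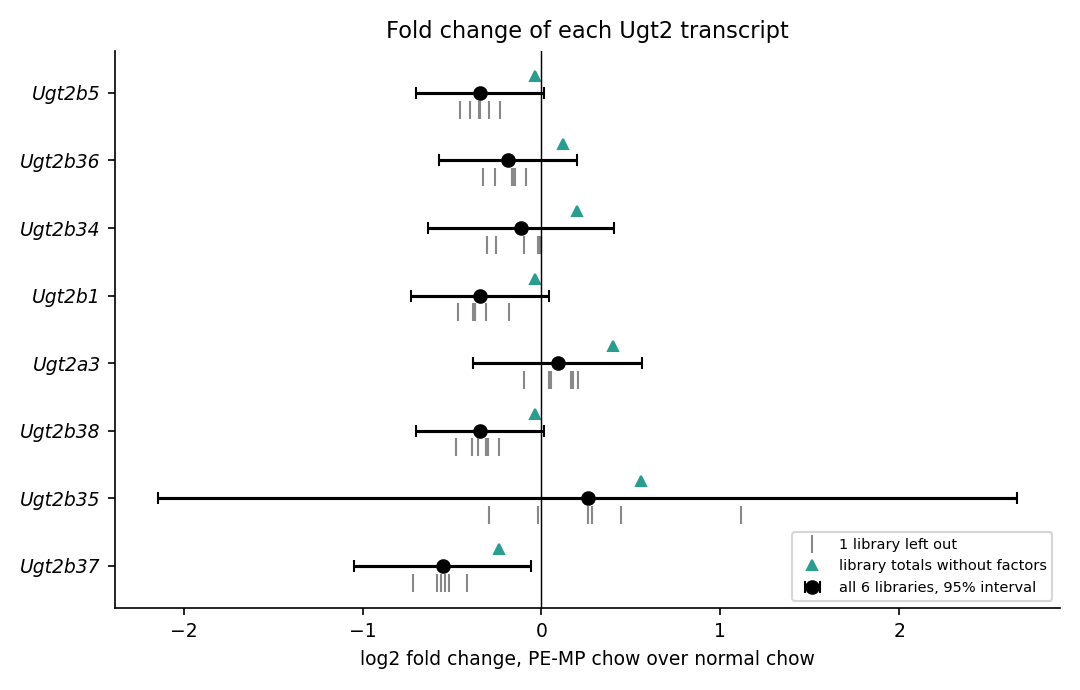
Log2 fold change of each Ugt2 gene, PE-MP chow over normal chow, with its 95% interval from edgeR (black), the values with 1 library left out (grey) and the value on library totals without factors (green). The intervals of 7 genes include 0 and that of Ugt2b37 runs from -1.05 to -0.057, while Ugt2b34 and Ugt2b36 change sign on library totals.

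The 15 pseudogenes annotated within the cluster took few of the counts. Of the 14 with a row, 7 had no count in any library and 13 had fewer than 200 over all 6 libraries. Gm5869 was the exception, with 8075 counts over the 6 libraries.

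The make-up of the family does not depend on how libraries are scaled. Ugt2a3 took 10.01%, 11.5% and 10.5% of the summed Ugt2 counts in PE-MP libraries 1, 2 and 3, against 7.76%, 8.56% and 9.38% in the normal chow libraries. Each PE-MP share lay above each normal chow share, at means of 10.7% ± 0.773 and 8.57% ± 0.811 (SD, n = 3 each). Ugt2b5 took 31.9%, 29.0% and 30.2% in the PE-MP libraries and 34.7%, 32.6% and 32.3% in the normal chow libraries, so that its shares lay lower under PE-MP chow, also without overlap. Ugt2b38 followed it, with 2.94%, 3.13% and 2.93% in the PE-MP libraries and 3.29%, 3.20% and 3.32% in the normal chow libraries. The ratio of Ugt2a3 to Ugt2b5 counts was 0.314, 0.398 and 0.349 under PE-MP chow and 0.224, 0.262 and 0.290 under normal chow. That of Ugt2b36 to Ugt2b5 was 0.731, 0.776 and 0.771 under PE-MP chow and 0.645, 0.676 and 0.719 under normal chow. In contrast, the ratio of Ugt2b38 to Ugt2b5 was 0.0990 ± 0.00822 under PE-MP chow and 0.0985 ± 0.00413 under normal chow (SD, n = 3 each), with overlapping chows. The part of reads shared by this pair in that ratio was not tested. The ratio of Ugt2b1 to Ugt2b5 was 0.470 ± 0.0439 under PE-MP chow and 0.467 ± 0.0260 under normal chow, also overlapping. The shares of Ugt2b1, Ugt2b34, Ugt2b35 and Ugt2b36 overlapped between chows, and those of Ugt2b37 came within rounding of each other at 0.117%. Shares of a whole move together and these ratios were picked after the values were seen, so none was tested, and 3 against 3 libraries cannot give an exact permutation p below 0.1.

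**Figure D4:**
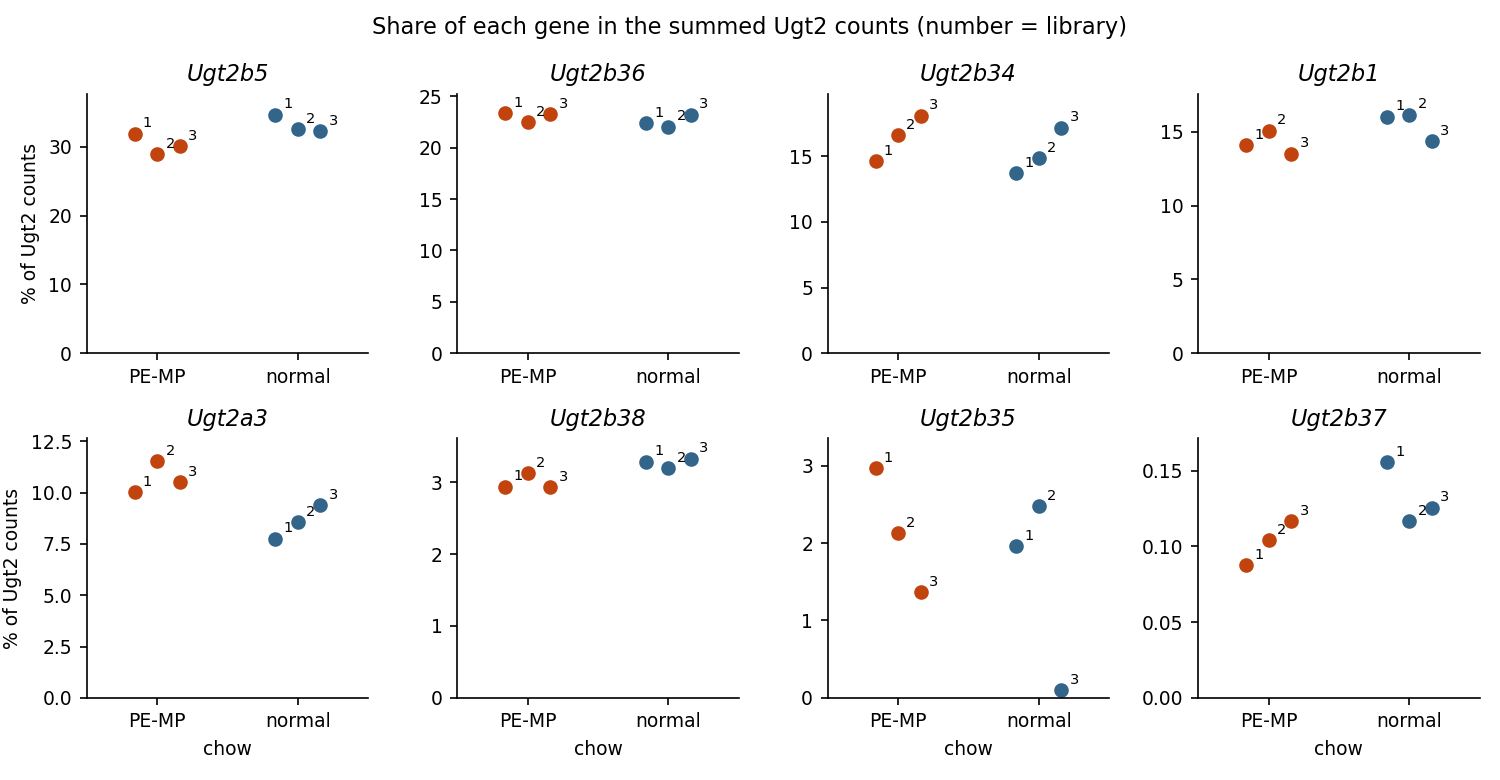
Share of each gene in the summed Ugt2 counts of a library, in percent, with PE-MP chow left of normal chow and the library number beside each point. The Ugt2a3 shares are 10.01% to 11.5% in PE-MP libraries and 7.76% to 9.38% in normal chow libraries, and those of Ugt2b5 and Ugt2b38 lie lower in PE-MP libraries.

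The genes around the family were read from lists of the glucuronidation pathway and its neighbours. No gene of the 6 lists passed edgeR's adjusted p of 0.05 in either direction, limma-voom called 0 and DESeq2 called 9. The lists held 11, 6, 5, 9, 12 and 19 tested genes, in the order given below. Of all tested genes, edgeR called 0.00554%, limma-voom 0.0831% and DESeq2 6.59%. Over all tested genes, 48.3% of log2 fold changes were negative on the TMM scale (median 0.018), and 23.6% were negative on library totals (median 0.32). An unadjusted p under 0.05 was reached by 17.9% of all tested genes. The lists are small, and their counts are descriptions to be read against these shares. Of 11 other Ugt genes tested, 9 had a negative log2 fold change on the TMM scale with a median of -0.71, against 6 and -0.40 on library totals, beside 48.3% and 23.6% of all genes. An unadjusted p under 0.05 was reached by 3 of the 11, all lower under PE-MP chow, beside 17.9% of all genes in either direction. The 2 with a positive value on the TMM scale were Ugt1a1 and Ugt1a6b. Ugt1a1, the most abundant of the list, had 544 ± 117 CPM under PE-MP chow and 440 ± 57.8 under normal chow (SD, n = 3 each). Ugt1a6b had 140 ± 29.3 CPM under PE-MP chow and 113 ± 15.4 under normal chow. The list summed to 1123 to 1348 CPM under PE-MP chow and 1195 to 1641 under normal chow, which overlapped. Ugt1a5 had 28.0, 36.9 and 54.1 CPM in the PE-MP libraries and 99.3, 98.1 and 151 CPM in the normal chow libraries, without overlap (log2 fold change -1.55 ± 0.29, SE; edgeR adjusted p = 0.126). Ugt1a7c also parted the chows on the TMM scale, with 40.1, 46.4 and 75.3 CPM in the PE-MP libraries against 163, 86.7 and 205 CPM in the normal chow libraries (-1.49 ± 0.38, SE; edgeR adjusted p = 0.153). In CPM of total counts its chows overlapped, at 88.1 in PE-MP library 3 and 76.3 in normal chow library 2. Of all tested genes, 11.8% were lower without overlap on the TMM scale and 2.65% in CPM of total counts. The Ugt1a genes share their last exons, so their counts depend on how shared reads were assigned.

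All 6 genes that supply UDP-glucuronic acid had negative log2 fold changes on the TMM scale, with a median of -0.18, while on library totals 2 did and the median was 0.12, beside 48.3% and 23.6% of all genes. At an unadjusted p under 0.05 there was 1 of 6, Ugdh, near the 17.9% of all genes. Ugdh, the dehydrogenase that makes UDP-glucuronic acid, had 157, 133 and 164 CPM in the PE-MP libraries and 204, 235 and 259 CPM in the normal chow libraries. The chows did not overlap on the TMM scale (log2 fold change -0.62 ± 0.14, SE; edgeR adjusted p = 0.137), where 11.8% of all tested genes were lower without overlap. In CPM of total counts they overlapped, at 192.3 in PE-MP library 3 and 188.5 in normal chow library 1, and the log2 fold change was -0.31. In the list of export and cleavage, 4 of 5 were negative with a median of -0.38, and 4 of 5 with a median of -0.076 on library totals, beside 48.3% and 23.6% of all genes. Of the 5, 2 had an unadjusted p under 0.05, beside 17.9% of all genes. The 1 positive gene, Abcc2, had 444, 535 and 647 CPM in the PE-MP libraries and 431, 429 and 407 CPM in the normal chow libraries. It was higher without overlap, as were 14.2% of all tested genes (log2 fold change 0.36 ± 0.16 SE, edgeR adjusted p = 0.297). The list summed to 821 to 1060 CPM under PE-MP chow and 876 to 1027 under normal chow, which overlapped. Abcg2, an export pump of the canalicular membrane, had 45.6, 31.5 and 31.3 CPM in the PE-MP libraries and 67.4, 53.9 and 77.35 CPM in the normal chow libraries (-0.87 ± 0.21, SE; edgeR adjusted p = 0.140). Gusb, the lysosomal enzyme that splits glucuronides, had 20.4 ± 1.81 CPM under PE-MP chow and 26.1 ± 2.67 under normal chow (SD, n = 3 each; edgeR adjusted p = 0.240).

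Sulfation competes with glucuronidation for many substrates, and 6 of 9 of its genes were negative on the TMM scale with a median of -0.13, against 4 and 0.19 on library totals, beside 48.3% and 23.6% of all genes. Of the 9, 1 had an unadjusted p under 0.05, no larger a share than the 17.9% of all genes. Papss1, which makes the sulfate donor, had 6.97 ± 0.373 CPM under PE-MP chow and 9.35 ± 0.950 under normal chow (SD, n = 3 each; edgeR adjusted p = 0.214). Papss2, another enzyme of that step, had 93.6 ± 24.5 CPM under PE-MP chow and 118 ± 19.9 under normal chow (SD, n = 3 each; edgeR adjusted p = 0.467). Of 12 steroid and sterol enzymes, 8 were negative with a median of -0.21, against 6 and 0.094 on library totals, beside 48.3% and 23.6% of all genes. Of the 12, 2 had an unadjusted p under 0.05, near the 17.9% of all genes. Srd5a1, which reduces testosterone to dihydrotestosterone, had 27.2, 23.6 and 18.2 CPM in the PE-MP libraries and 71.6, 85.2 and 32.2 CPM in the normal chow libraries (log2 fold change -1.45 ± 0.37, SE; edgeR adjusted p = 0.153). Cyp7b1, an oxysterol hydroxylase, had 90.5 ± 13.2 CPM under PE-MP chow and 132 ± 22.3 under normal chow (SD, n = 3 each; edgeR adjusted p = 0.192).

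Of 19 transcription factors, 12 had a positive log2 fold change on the TMM scale with a median of 0.19, beside 51.7% of all genes and their median of 0.018. On library totals 17 were positive with a median of 0.50, beside 76.4% of all genes and their median of 0.32. At an unadjusted p under 0.05, 4 were higher and 1 was lower under PE-MP chow, beside 17.9% of all genes in either direction. Foxa1, a forkhead factor of liver development, had 2.27, 6.79 and 7.02 CPM in the PE-MP libraries against 0.514, 0.266 and 0.859 CPM in the normal chow libraries (3.28 ± 0.60, SE; edgeR adjusted p = 0.124). Hnf4a, a main hepatocyte regulator, had 339.7 ± 30.7 CPM under PE-MP chow and 338 ± 45.3 under normal chow (SD, n = 3 each). The genes that DESeq2 called included Ugt1a5, Ugt1a7c, Ugdh, Abcg2 and Srd5a1 on the lower side and Foxa1, Cux2 and Bcl6 on the higher side.

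**Figure D5:**
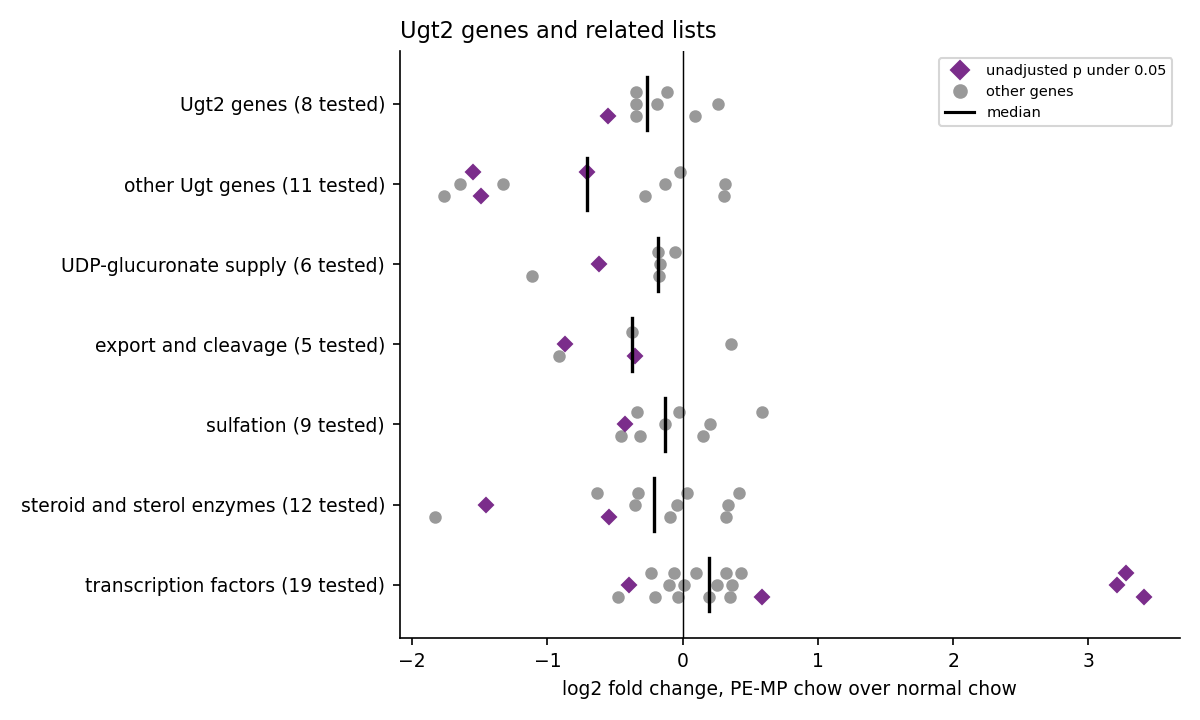
Log2 fold change, PE-MP chow over normal chow on the TMM scale, of the tested genes of each list, with the list median as a line and genes with an unadjusted edgeR p under 0.05 as diamonds. The 8 Ugt2 genes lie between -0.55 and 0.26 with a median of -0.26, and no gene shown passed the adjusted threshold.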

How the data were processed

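The files hold unnormalised read counts per gene as deposited: values are whole numbers, each library sums to a different total, and the tables for single libraries repeat the joint table, which was used. The submitters' processing notes name bcl2fastq and the build GRCm39. The labels name a directional poly(A) kit, while aligner, counter, annotation and strand setting are not stated. Groups and replicate numbers came from the labels.

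The chows were compared in R 4.3.3 by edgeR 4.0.16 (quasi-likelihood F test, robust, TMM factors, default expression filter, 18043 genes, two-sided, Benjamini-Hochberg over all genes, threshold 0.05). Standard errors and 95% intervals came from the coefficient, its F and the degrees of freedom. The alternatives were other scaling factors (RLE, upper quartile), DESeq2 1.42.0, limma 3.58.1 (voom), no filter, a filter of 1 CPM in all libraries of a chow, each library left out, the replicate block, and the fit without mitochondrial and 18S rows. Library totals without factors and the sum without Ugt2b35 were added after seeing the data. The edgeR step was tested on simulated counts.

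Members and lists were chosen with earlier results of these data known. All 8 members are named, and of each list the 2 genes with the smallest p, some of which are not reported here. Hnf4a, Cux2, Bcl6, Gm5869, Ugt1a1, Ugt1a6b, Ugt1a8, Ugt1a10 and Abcc2 were named outside this rule, after their values were seen. So were the genes of the cell type and library checks. Promoters came from RefSeq (GRCm38.p6) and transcripts from GENCODE M21, and all 8 members matched by symbol. The gapped match was chosen after reading the promoters. Every pair of replicates differed by more than counting noise, with a chi-square per degree of freedom of at least 152.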

Additional observations from a re-analysis of the deposited data

How the results depend on the processing

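No setting called a Ugt2 member, including each left-out library. With library totals in place of TMM factors, the member median was 0.044, the ratio of the summed level 1.06, and the log2 fold changes of Ugt2b34 and Ugt2b36 turned to 0.20 and 0.12; TMM, RLE and upper-quartile factors gave the same signs. Without Ugt2b35 the ratio of the summed level was 0.854. Leaving out single libraries gave a member median of -0.39 to -0.13, a summed ratio of 0.781 to 0.936, and log2 fold changes of -0.10 to 0.21 for Ugt2a3 (negative without normal chow library 1) and -0.30 to 1.11 for Ugt2b35 (negative without normal chow library 3, and -0.017 without PE-MP library 1). Over all genes, edgeR called 1 higher and 0 lower. The counts higher and lower were 2 and 1 with RLE factors, 559 and 627 with DESeq2, 6 and 9 with limma-voom, 15 and 8 without the filter, 11 and 11 with the strict filter, 0 and 0 with the replicate block, and 10 and 0 on library totals. Leaving out single libraries gave 1 to 452 higher and 0 to 623 lower, the highest counts without normal chow library 2. Pathway list genes called numbered 9 with DESeq2, which called 6.59% of all genes. They numbered 0 to 4 with single libraries left out, the 4 again without normal chow library 2. The cause of these differences was not tested. Libraries with the same number shared only that number, with correlations of their deviations of 0.0027, 0.040 and 0.136, and the replicate block left the member median at -0.25 and called none of the named genes. The depth allows 1 count to be seen at 0.00888 to 0.0146 CPM.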
